A study of Mus musculus with 7 samples.

Results

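The sites described here are narrow stretches of the genome where called peaks of the glucocorticoid receptor (GR) and of PPARα overlapped in mouse erythroid progenitors called burst-forming unit erythroid cells (BFU-E). A site was taken from the list of GR peaks if its peak was under 80 bp wide and overlapped a peak of the PPARα list by at least 1 bp. This rule gave 272 sites, which were 272 of the 329 GR peaks under 80 bp (82.7%, exact 95% interval 78.1 to 86.6%) and 23.5% of all 1157 GR peaks. Over all GR peaks of any width, 751 overlapped a PPARα peak, a background of 64.9%. The sites were thus chosen by the measured width and overlap of called peaks, and both are given as a description. The 272 GR peaks touched 271 PPARα peaks of the 1651 in that list, called their partners below.

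The peaks came from chromatin immunoprecipitation followed by sequencing (ChIP-seq), in which DNA crosslinked to a protein is pulled down with an antibody and read. BFU-E were sorted from fetal livers of 129/SvImJ embryos at E14.5 as c-kit positive cells with low CD71, after magnetic removal of other blood lineages. The cells were cultured with SCF, IGF-1 and erythropoietin, which all groups received. The GR and the PPARα library were both labelled as made after 4 h with 100 nM dexamethasone, a synthetic glucocorticoid, and 10 μM GW7647, an agonist of PPARα. In the header of the PPARα table, however, the read file is marked for dexamethasone alone, so the treatment of that library rests on its sample label. There was 1 library per antibody and 1 input library of DNA that was not immunoprecipitated, so no value below has a replicate check and no test was made. The series lists 7 samples. The other 4, GR and PPARα in untreated cells and after dexamethasone alone, were not analysed here, and the input entered only through the authors' folds. The effect of either compound on these sites was therefore not measured.

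GR is a nuclear receptor that rests in the cytoplasm and moves to the nucleus when it binds a glucocorticoid. There it contacts DNA directly, as a dimer on palindromic response elements, or through other transcription factors. PPARα is a nuclear receptor for fatty acids and fibrate-like drugs that binds direct repeats together with RXR and is best known for switching on genes of fatty acid oxidation. Glucocorticoids are known to promote self-renewal of BFU-E, and the series asks whether PPARα signalling adds to this. No gene or sequence is given for the sites, because their positions are on the mm9 build. The gene annotation at hand was on GRCm38, and no genome sequence was at hand.

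The 10 leading narrow sites were picked by the mean rank of both folds, so high enrichment in both libraries follows from that choice. Ranking on both folds also favours sites with many reads in both lists. Their reads are given as a description. The ratio of PPARα to GR reads was lowest with 19 against 20 on chromosome 14. It was highest with 28 against 22 on chromosome 1. Reads are counts of distinct sequenced fragments in a peak after duplicate removal, and fold is the enrichment over background given in the authors' deposited tables. Folds of different lists are on different scales. The site with the best mean rank of both folds lay on chromosome 14 from 86525625 to 86525692. GR had 26 reads there and a fold of 154.0, and PPARα had 32 reads and a fold of 803. The next lay on chromosome 12 from 83382183 to 83382257, with 22 GR and 27 PPARα reads and folds of 130.3 and 678. Its PPARα peak began 3 bp inside the GR peak and had its summit 1 bp away.

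Another chromosome 14 site, from 31464971 to 31465040, held 25 GR and 26 PPARα reads. On chromosome 1, from 129525921 to 129525989, GR had 22 reads and PPARα 28, and both peaks began on the same base. A site on chromosome 4 from 25176335 to 25176398 held 24 reads in each library and also began on the same base in both lists. On chromosome 9, from 10029577 to 10029640, there were 21 GR and 25 PPARα reads. At these 4 sites the GR fold was 124.4 to 148.1 and the PPARα fold 600.3 to 628.

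The remaining 4 of the 10 best-ranked sites also had similar numbers of reads in both libraries. On chromosome 14, from 103419748 to 103419819, GR had 25 reads and PPARα 26. A site on chromosome 10 from 73955653 to 73955718 held 21 reads in each library, with both summits at 1 base. On chromosome 8, from 104174119 to 104174170, each library had 18 reads in a stretch of 52 bp for GR and 48 bp for PPARα, and here too the summits coincided. The tenth site, on chromosome 14 from 15977893 to 15977969, had 20 GR and 19 PPARα reads. Of these 10 sites, 4 lay on chromosome 14.

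Across the narrow sites the GR library and the PPARα library held almost the same number of reads. GR peaks had a median of 8 reads (quartiles 6.75 and 11, range 6 to 34) and their partners a median of 8 (quartiles 6 and 12, range 4 to 52). Summed over sites, GR had 2676 reads (exact Poisson 95% interval 2576 to 2779) and PPARα 2687 (2586 to 2791). The PPARα sum includes wide partners that touched 2 GR peaks each, with 13, 17 and 52 reads. The libraries differed in depth, with 7516221 GR reads and 1959992 PPARα reads after duplicate removal, or 0.261 PPARα reads per GR read. As a share of all reads of its library, PPARα thus had 0.137% at these sites and GR 0.0356%, a ratio of 3.85. A site entered only with a called PPARα peak, and no such peak had fewer than 4 reads. That requirement itself raises the PPARα share, so the ratio only describes the chosen sites. The intervals of the sums cover counting error only.

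The ratio was also near 1 site by site. In 268 pairs 1 GR peak matched 1 PPARα peak, and the PPARα reads divided by the GR reads there had a median of 1.00 (quartiles 0.800 and 1.17, range 0.357 to 2.67). PPARα had more reads in 103 pairs, fewer in 124 and the same number in 41. In 0 of the 268 pairs was the ratio as low as that of the library depths. Pairs with few GR reads could not have reached it. Since no PPARα peak was called with fewer than 4 reads, a GR peak needs at least 16 reads for a pair to be able to lie near the depth ratio. At 16 GR reads only a PPARα peak of exactly 4 reads could lie there. The calling limit therefore still bears on pairs just above 16 reads. Of the 32 GR peaks under 80 bp with at least 16 reads, 31 were shared. Their median ratio was 0.900 (quartiles 0.811 and 1.02, range 0.441 to 1.27), so all 31 stood above the depth ratio.

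**Figure D1:**
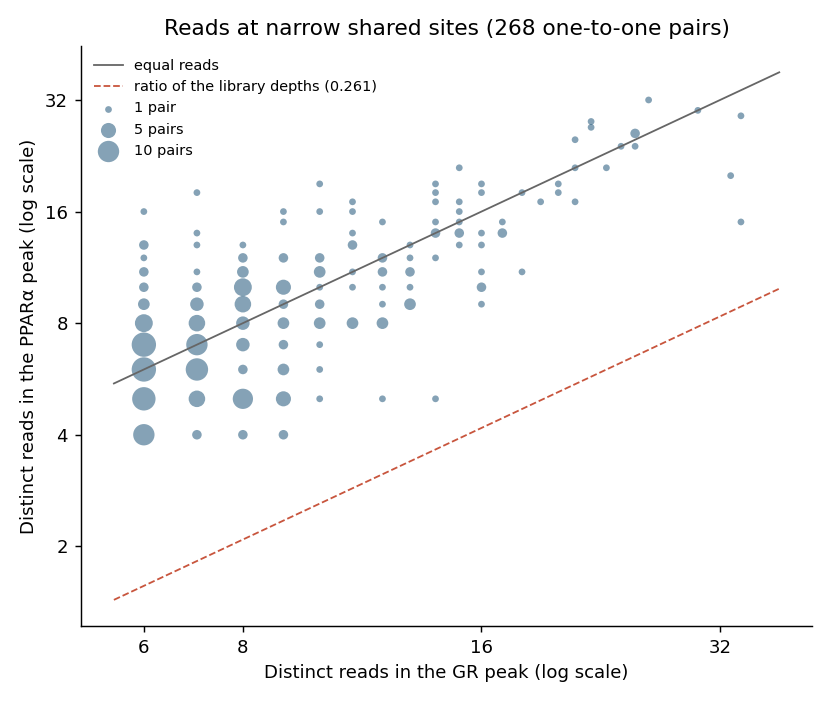
Distinct reads in the PPARα peak (vertical axis, log scale) against distinct reads in the GR peak (horizontal axis, log scale) for the 268 one-to-one pairs of narrow sites, with the circle area giving the number of pairs. The pairs lie around the grey line of equal reads, with a median ratio of 1.00. All lie above the dashed line of the depth ratio, 0.261, which pairs with under 16 GR reads could not reach.

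Narrow GR peaks with more reads were more often shared. Of the 100 GR peaks under 80 bp with 6 reads, the smallest number in the list, 68 overlapped a PPARα peak (68.0%, interval 57.9 to 77.0%). With 7 reads 45 of 60 did, with 8 reads 42 of 46 (91.3%), and with 9 or 10 reads 42 of 45 (93.3%). With 11 to 15 reads the share was 44 of 46 (95.7%), and from 16 reads upwards it was 31 of 32 (96.9%). Because overlap is part of the rule, this is a description of the list. PPARα reads followed GR reads upwards, from a median of 6 where GR had 6, to 8 where GR had 8, 12 where GR had 11 to 15, and 18 where GR had 16 to 34. Spearman's rho across the 268 pairs was 0.639 for reads and 0.699 for folds. Pairs share 1 pair of libraries and 1 input, and low reads are bounded by the calling limits of both lists.

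The ratio of PPARα to GR reads was above 2 in 4 one-to-one pairs and below 0.5 in 5. PPARα had 16 reads against 6 for GR on chromosome 10, where the GR peak ran from 15886277 to 15886335 and the PPARα peak was 128 bp wide. A chromosome 18 site, 53222621 to 53222671 in the GR list, had 7 GR and 18 PPARα reads. On chromosome 6, from 5342916 to 5342968, there were 6 GR and 13 PPARα reads in peaks of equal width, 53 bp. A chromosome 8 site from 94007485 to 94007557 had the same 6 and 13 reads. At the other end, a chromosome X site from 4545400 to 4545478 had 14 GR and 5 PPARα reads, and a chromosome Y site from 2691341 to 2691408 had 12 and 5. On chromosome 19, from 23431918 to 23431996, there were 34 GR reads, the highest number at any narrow site, and 15 PPARα reads. These last 3 sites had low folds of 4.65 to 11.7 for GR and 9.29 to 20.7 for PPARα.

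Most partners were about as narrow as the GR peaks that chose them. GR widths ran from 46 to 79 bp with a median of 64 bp, and partner widths from 40 to 409 bp with a median of 59 bp. Of the 271 partners 234 (86.3%, interval 81.7 to 90.2%) were themselves under 80 bp, against 58.9% of all PPARα peaks. In 178 of 272 pairs the PPARα peak was the narrower one, in 87 the wider one and in 7 the width was the same. The partner lay wholly inside the GR peak in 142 pairs, and the GR peak inside the partner in 43. Although the rule asked for only 1 bp, the smallest overlap was 40 bp, and the overlap covered a median of 91.5% of the GR peak.

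The edges of the peaks lay close to each other at many sites. The PPARα left edge lay a median of 1 bp inside the GR edge (quartiles -1.25 and 4 bp, positive towards the inside), and 177 of 272 left edges were within 5 bp. The right edge lay a median of 2 bp inside, and 175 of 272 were within 5 bp. Both edges were within 5 bp in 112 pairs (41.2%). The left edges were identical in 39 pairs and the right edges in 16. The peak caller had estimated fragments of 42 bp for GR and 38 bp for PPARα. Peaks built from the same read positions could therefore differ slightly in width between the lists. Reads were 40 bp long, so the PPARα estimate was shorter than a read. Both estimates lay far below the library fragments of 200 to 400 bp that the protocol selected. In 268 of the 272 pairs both peaks were narrower than 200 bp. The values below on summits, places and background rest on the caller's estimates, which are not measured fragment lengths.

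**Figure D2:**
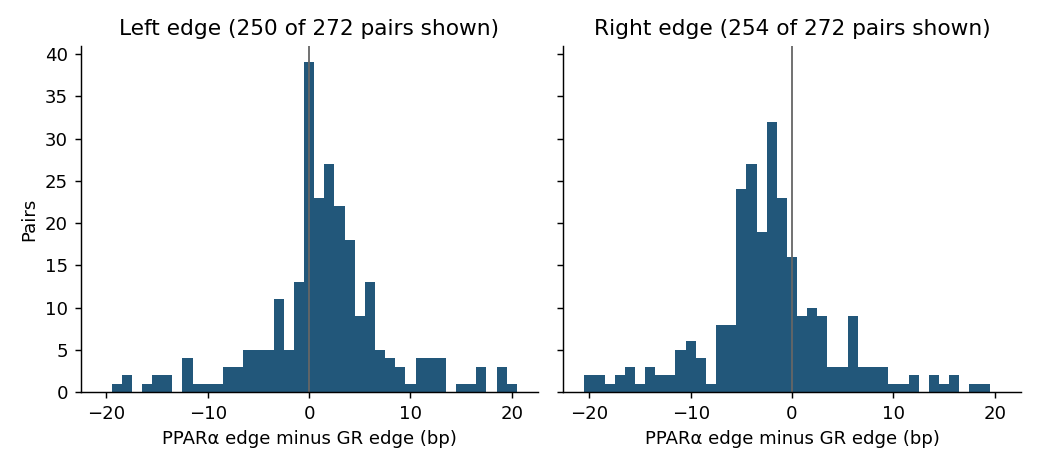
Number of pairs (vertical axis) by the distance in bp between the PPARα edge and the GR edge (horizontal axis) for the left and the right edge of the 272 narrow sites. Pairs with an edge over 20 bp away are outside the axis, 22 on the left and 18 on the right, and the rest gather within a few bp of 0.

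Summits of most of these peaks carry no position beyond the edges. All 272 GR peaks had their summit at most 1 bp from the midpoint. The same held for all 367 GR peaks under 84 bp, which is 2 fragment lengths, but for 23 of the 790 wider ones (2.91%). Below that width all fragments of a peak overlap in its middle, which puts the highest point at the midpoint. All 226 partner peaks under 76 bp, 2 PPARα fragment lengths, had their summit at the midpoint too, but only 1 of the 45 wider partners did. In the 226 pairs with a partner under 76 bp the summit distance, with a median of 2.5 bp (quartiles 1 and 5 bp), is therefore a distance between midpoints. In the 46 pairs with a wider partner it was 4.5 bp (quartiles 2 and 7.75 bp). Over all 272 pairs the median was 3 bp, and the distance was 0 in 36 pairs, at most 5 bp in 206 and over 20 bp in 3.

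Narrow peaks leave few positions for distinct reads. With 1 read kept per position and strand, a GR peak can hold at most 1 distinct read for each place that a 42 bp fragment can take within it on either strand. The 272 sites offered 10 to 76 such places for GR, with a median of 46. The reads filled a median of 20.8% of them (quartiles 14.2 and 31.9%). Partners were filled to a median of 20.5%, taken over the 272 pairs. By comparison the 233 shared GR peaks from 80 bp to under 120 bp were filled to a median of 8.14% with a median of 9 reads, and narrow GR peaks without PPARα to 16.7%. The places follow from the width that chose the sites, so the higher filling than in wider peaks is a description only.

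The fullest site was that on chromosome 8 from 104174119 to 104174170. Both libraries had 18 reads there for 22 places, or 81.8%, in GR and in PPARα alike. The narrowest site, on chromosome 3 from 69829900 to 69829945, had 6 GR reads in 46 bp and 4 PPARα reads in 40 bp, which filled 6 of 10 and 4 of 6 places. At least 50% of places were filled at 21 sites in GR, at 18 in PPARα and at 9 in both. The median ratio of reads was 1.00 in the 153 one-to-one pairs filled to under 25% in GR, 0.905 in the 94 filled to 25% or more but under 50%, and 0.933 in the 21 filled further. Sparsely filled sites mostly had few reads, where the calling limits of 6 GR and 4 PPARα reads bound the ratio. The part of the limit on distinct reads in the ratio was not tested.

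**Figure D3:**
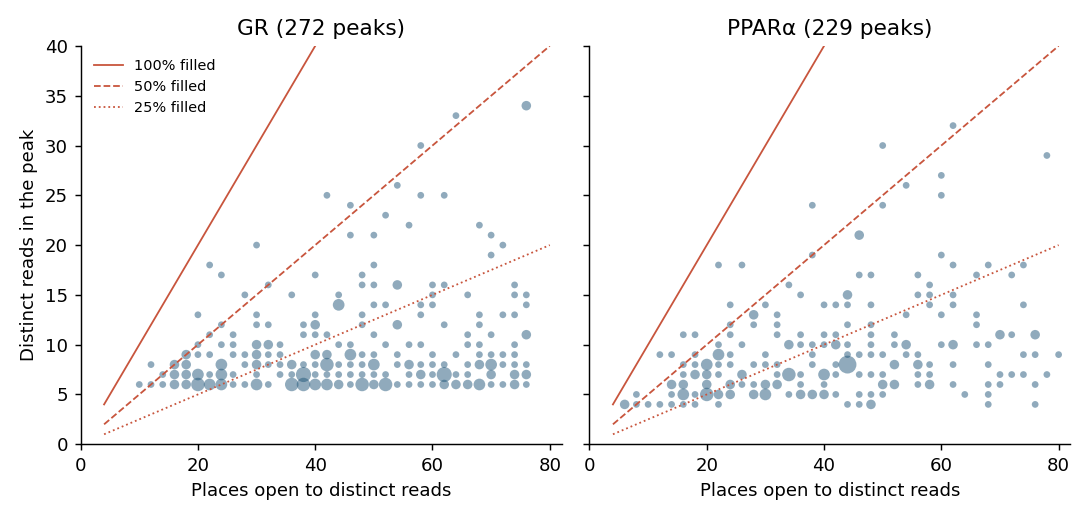
Distinct reads (vertical axis) against the number of places open to distinct reads (horizontal axis) for the 272 GR peaks and for the 229 partner peaks with at most 80 places, with the circle area giving the number of peaks. Lines mark 100%, 50% and 25% filling, and most peaks lie low, with medians over all sites of 20.8% in GR and 20.5% in PPARα.

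Folds at narrow sites can be taken apart into reads and background. Where all reads of a peak overlap at its summit, the fold is the number of reads divided by the background, and 1 read over the genome-wide background is worth a fold of 5.92 in GR and 25.1 in PPARα. At 203 of the 272 sites (74.6%, interval 69.0 to 79.7%) the GR fold equalled the GR reads at the genome-wide background, within 0.02 reads. At these sites the fold adds nothing to the read count. At the other 69 sites the fold was lower than the reads would give, and the background behind it was raised by a median of 1.58 times (range 1.00 to 43.3). The same identity held for 0 of the 790 GR peaks of 84 bp or more. At that width not all fragments can overlap at 1 point, so it could not hold. Of the 57 narrow GR peaks without PPARα, 35 (61.4%) were at the genome-wide background, and 19 (33.3%) had a background raised at least 2 times, against 27 (9.93%) of the narrow shared sites.

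The background recovered in this way could be compared between the lists. Both lists used the same input library at overlapping positions, so a ratio near 1 is in large part built in. The background could be read from both folds in the 226 pairs whose partner was under 76 bp. In 156 of them neither background was raised and in 51 both were, while in 8 it was raised for GR alone and in 11 for PPARα alone. Where both were raised, the median ratio of the PPARα to the GR background was 1.00 (quartiles 1.00 and 1.11, range 0.425 to 1.36), and the ratio was within 10% of 1 in 30 of the 51 pairs (58.8%). Where the GR background was raised at least 2 times, it was within 10% of 1 in 10 of 22 pairs (45.5%). The lowest ratios were at a chromosome 1 site from 46132781 to 46132831, raised 3.66 times in GR and 1.56 times in PPARα, and at a chromosome 2 site from 69901939 to 69902010, raised 2.59 and 1.18 times. At the chromosome 19 site from 23431918 the background was raised 43.3 times in GR and 40.5 times in PPARα. At a chromosome 3 site from 59849127 to 59849179, which had the lowest GR fold of all narrow sites, 4.04, it was raised 17.6 and 17.8 times, with 12 GR and 8 PPARα reads.

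**Figure D4:**
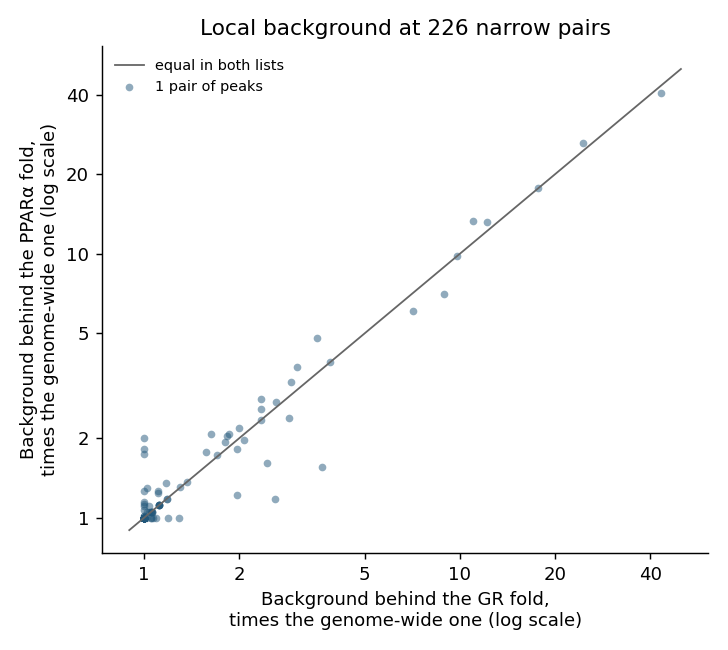
Background behind the PPARα fold (vertical axis) against background behind the GR fold (horizontal axis), each as a multiple of its library's genome-wide background on a log scale, with 1 point for each of the 226 pairs whose partner was under 76 bp. In 156 pairs both values are at 1, and the highest pair has 43.3 for GR and 40.5 for PPARα.

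The background is worked out from the fold and the reads, so a strongly raised background means by definition a low fold for the reads. At 8 sites, with 9 to 34 GR reads, the GR background was raised at least 10 times, and 4 of them lay on chromosome Y. These 4 were all of the shared GR peaks on that chromosome, between 2691341 and 2773937, with 9 to 20 GR reads and folds of 4.28 to 6.47. On chromosome X, a site from 21257686 to 21257764 had 34 GR and 29 PPARα reads with folds of 19.7 and 66.0. Another, from 166438970 to 166439042, had 33 GR and 20 PPARα reads with folds of 4.59 and 15.9, and its GR background was raised 42.6 times. The chromosome 18 site from 85867613 to 85867682, with 30 reads in each library, had a GR background raised 8.89 times. Of the 5 sites with the most GR reads, only the leading one on chromosome 14 was at the genome-wide background. Without the 69 sites of raised background the ratio of reads was unchanged, with a median of 1.00 over 199 pairs, and in the 69 pairs of raised background it was 0.889.

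Beside wider shared peaks, the narrow sites had fewer reads and similar folds. Shared GR peaks from 80 bp to under 120 bp had a median of 9 reads and a median fold of 41.5, the same fold as the narrow sites. In those of 120 bp or more the medians were 21 reads and a fold of 47.4. In one-to-one pairs the median ratio of reads, PPARα over GR, was 0.875 at 80 bp to under 120 bp (225 pairs) and 0.926 at 120 bp or more (223 pairs), against 1.00 at narrow sites. With at least 16 GR reads these medians were 0.949 (52 pairs), 0.920 (134 pairs) and 0.900 (31 pairs), so the order of the width classes was not the same. For narrow GR peaks without PPARα the medians were 6 reads and a fold of 35.5. Peaks of 1 library are not replicates, and none of these differences was tested.

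Nearly all narrow sites passed the fold of 10 that defines the authors' shorter lists. The GR fold was 10 or more at 265 of 272 sites, against 91.4% of all GR peaks, and the PPARα fold at 269 of 271 partners, against 98.3% of all PPARα peaks. The FDR of these GR peaks in the authors' deposited table was 0.350 to 2.17% (quartiles 0.65 and 0.83%). The 10 best-ranked sites had GR values of 0.86 to 2.17%, all above the upper quartile. The highest was at the best-ranked site on chromosome 14. A high GR fold thus did not go with a low GR FDR at these 10 sites. The FDR of their PPARα peaks was given as 0. Few partners stood at the lower limit of reads, since 51 of 271 (18.8%) had 4 or 5 reads, whereas 762 of the 1651 PPARα peaks did (46.2%). This was not particular to narrow sites. The first quartile of partner reads was 6 for them, 6 for shared GR peaks of 80 bp to under 120 bp and 11 for wider ones. Just inside the width limit, the 10 sites of 79 bp had 6 to 34 GR reads with a median of 11 and a median fold of 40.3. Just outside, the 8 shared GR peaks of 80 bp had 6 to 27 reads with a median of 9 and a median fold of 44.4.

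Most narrow sites stood alone. The median gap to the nearest other GR peak was 824555 bp, against 577742 bp for all GR peaks. Another GR peak lay within 1000 bp of 18 of the 272 sites (6.62%), against 14.3% of all GR peaks. In runs of 8 or more GR peaks less than 100 kb apart lay 11 sites (4.04%), against a background of 10.0%. In 4 cases a partner also touched a further GR peak. On chromosome 6, the narrow peaks from 33449555 to 33449632 and from 33449677 to 33449755, each with 6 reads, shared a single PPARα peak of 205 bp with 17 reads. A GR peak on chromosome 3 with 8 reads, from 109132670 to 109132746, lay inside a PPARα peak of 409 bp with 52 reads, the widest partner, which touched 2 GR peaks. On chromosome 4 the partner of the site from 72924258 to 72924327 was 215 bp wide.

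Every autosome and both sex chromosomes held narrow sites, in different shares of their GR peaks. Chromosomes 3 and 6 held the most, 22 each, followed by chromosome 14 with 21. On chromosome 14 these made up 42.9% of its 49 GR peaks, against 23.5% over the genome. On chromosome 13, which had the most GR peaks of any chromosome, 14 of 106 (13.2%) were narrow shared sites. Of the GR peaks under 80 bp, 82.7% were shared over the genome. The share was lowest on chromosome Y, with 4 of 9, followed by chromosome 15 with 10 of 16, X with 15 of 22 and 5 with 9 of 13. On chromosomes 4, 12 and 18 all 17, 10 and 7 were shared. All chromosomes named here were picked after the counts were seen, and many of these counts are small.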

How the data were processed

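The submitters' processing notes name cutadapt, Bowtie and the build mm9. Tool versions were not given in the sources used here. The authors called peaks with MACS 1.4.2, per the file headers, separately for GR and PPARα and against the same input library of 30047397 reads, at a p cutoff of 1.00e-05, keeping 1 read per position. The deposited tables give per peak a count of reads, a score of 10 times the negative log10 of p, a fold ratio over background and an FDR in percent. The deposited fold 10 lists held the same peaks as the tables at that fold (1058 GR, 1623 PPARα). Depth was 7516221 GR and 1959992 PPARα reads after removal of 14% and 13% duplicates.

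Overlap used the 1-based start and end. The genome-wide background is fragment length times reads over the genome size of 1.87e+09. Places are 2 times the width minus the fragment length plus 1. Intervals for shares are exact Clopper-Pearson intervals, and cover counting error only. Overlap counting was tested on simulated data: with 0, 100 and 272 planted overlaps among 329 peaks, 0, 100 and 272 were recovered. Named sites were the 10 best by mean rank of both folds, the 5 with most GR reads, the 3 of lowest fold, the narrowest, and the 3 highest and 3 lowest ratios of reads. Sites sharing a partner, tied sites, those of least equal background, the chromosome Y and fullest sites were added after their values were seen. The rule for the sites and the lists were chosen with earlier results of these data known. Motifs, sequences and nearby genes were planned only with an mm9 genome and were not analysed here. Scripts ran in Python 3.11.15 with pandas 2.3.3, numpy 2.4.6, matplotlib 3.10.9 and scipy 1.17.1.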

Additional observations from a re-analysis of the deposited data

How the results depend on the processing

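Of 90 recomputed values, 9 results under 10 alternatives, 85 stayed within the 95% interval of the main value, or within 1.5 times for the number of sites, and 5 moved. An FDR of at most 5% kept all 272 sites, and so did an overlap of at least 50% of the GR peak. Requiring the GR summit inside the PPARα peak also kept all 272. These settings returned the main values unchanged, are counted among the 85, and say nothing on stability. A limit of 60 bp left 89 sites, with partners at a median fold of 166.1 and 7 reads. A fold of 20 or more in both lists gave a shared proportion of 87.1%. A limit of 100 bp gave 385 sites, and 75.8% of their partners were under 80 bp. The median of PPARα reads over GR reads was 1.00 and the median GR reads 8 under each of the 10. The median summit distance was 2 or 3 bp. The setting without raised backgrounds was added after the data were seen. Motif and gene alternatives were not run. No paired analysis was possible because there was only 1 library for either antibody. Most sites rest on few reads, since 155 of 272 had 6 to 8 GR reads, and a difference of a few reads at a single site was not resolved at this depth.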

Other observations

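Of the 57 narrow GR peaks without a PPARα overlap, 4 had a PPARα peak less than 200 bp away. They lay on chromosome 13 from 23636658 to 23636733 (7 reads, 49 bases away), on chromosome 8 from 129334237 to 129334311 (6 reads, 88 bases) and on chromosome 15 from 86025205 to 86025268 (9 reads, 161 bases) and from 86025311 to 86025372 (10 reads, 57 bases). The median distance over all 57 was 511957 bases.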
